A study of Mus musculus with 8 samples.

Results

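The tuft cell marker genes are 9 genes chosen by name as markers of the intestinal tuft cell: Dclk1, Trpm5, Pou2f3, Il25, Avil, Il17rb, Alox5ap, Ptgs1 and Sh2d6. All 9 were found among the 55114 genes of the count table, and 8 of them had enough reads to be tested, among 16109 tested genes. Il25 was the member left out by the filter on low counts. The RNA came from intestinal crypts of C57BL/6 mice aged 8 weeks, with 4 Mex3a KO mice, in which exon 1 and part of exon 2 of Mex3a are deleted in every cell, and 4 littermate controls, labelled Ctrl and called WT here. Mex3a encodes an RNA-binding protein of the crypt base, and the comparison asks what its loss does to the crypt transcriptome. The crypts were released with EDTA as a bulk fraction and no cell type was sorted, so that fewer tuft cells and less RNA per tuft cell cannot be told apart.

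Tuft cells are rare chemosensory cells of the gut epithelium that arise from the crypt stem cells. They sense luminal metabolites through a taste-like cascade of receptors, G proteins, phospholipase C and the cation channel TRPM5, and answer with IL-25 and lipid mediators such as leukotrienes and prostaglandins. IL-25 acts on group 2 innate lymphoid cells, whose IL-13 acts back on the stem cells so that more tuft and goblet cells form. The transcription factor POU2F3 is required for the tuft cell to form at all.

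The libraries held 20324184 to 24726221 assigned reads in WT and 23489180 to 30654105 in KO. Mex3a itself lay between 11.0 and 16.0 CPM (counts scaled to a common library size) in WT mice and between 0.260 and 1.09 in KO mice, so that the genotypes did not overlap. In each genotype, replicates 1 and 2 carried the Y-linked transcript Ddx3y and replicates 3 and 4 carried Xist. The crypt fraction was rich in the genes of other crypt cells: the 8 stem cell markers summed to between 4143 and 6062 CPM over the mice and the 7 Paneth cell markers to between 7431 and 44070 CPM, whereas the 9 tuft cell markers together reached at most 138 CPM.

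Some of the sequence around these genes is given first, since MEX3A binds RNA and POU2F3 binds DNA. POU-domain factors bind an octamer, ATGCAAAT. RefSeq promoter windows of GRCm38.p6, from 250 bases before to 50 bases after a transcription start, were at hand for Dclk1, Trpm5, Avil, Il17rb, Ptgs1 and Sh2d6, in 7 windows, as Dclk1 has a second start inside the gene. The exact octamer, searched on both strands, stood in 1.74% of all 32851 windows and in 0 of the 7 windows of the members. With at most 1 mismatch allowed it stood in 18.6% of all windows and in 1 of the 7, that of Avil. The windows of Avil, of Trpm5 and of the internal start of Dclk1, a gene known for a short form made from such a start, are shown 5′ to 3′ on the strand of the gene, with the near-octamers in capitals.
Avil, chr10:127000459-127000758, plus strand: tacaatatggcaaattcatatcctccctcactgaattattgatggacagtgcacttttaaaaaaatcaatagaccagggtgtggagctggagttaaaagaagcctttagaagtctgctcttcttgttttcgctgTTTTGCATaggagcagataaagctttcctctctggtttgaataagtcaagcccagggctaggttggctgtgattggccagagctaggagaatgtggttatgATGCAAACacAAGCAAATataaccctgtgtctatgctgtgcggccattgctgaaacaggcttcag
Trpm5, chr7:143094593-143094892, minus strand: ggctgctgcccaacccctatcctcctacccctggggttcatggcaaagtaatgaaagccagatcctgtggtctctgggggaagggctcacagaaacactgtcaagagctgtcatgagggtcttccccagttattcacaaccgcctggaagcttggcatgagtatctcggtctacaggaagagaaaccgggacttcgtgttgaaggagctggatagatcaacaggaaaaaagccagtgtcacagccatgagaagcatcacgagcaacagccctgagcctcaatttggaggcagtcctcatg
Dclk1, chr3:55461478-55461777, plus strand: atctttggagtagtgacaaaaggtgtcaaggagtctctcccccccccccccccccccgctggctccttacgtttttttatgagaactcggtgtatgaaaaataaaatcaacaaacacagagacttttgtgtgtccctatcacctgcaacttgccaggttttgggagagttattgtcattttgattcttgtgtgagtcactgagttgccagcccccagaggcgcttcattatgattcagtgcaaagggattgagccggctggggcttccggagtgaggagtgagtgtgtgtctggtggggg
In the Avil window the near-octamers begin at positions -116, -15 and -5 from the start, counted as 0, the first of them on the opposite strand. These matches are a description of letters and not of bound sites.

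The RNA element that MEX3A is known to bind has 2 short arms separated by up to 8 bases. With the longest coding transcript of each gene taken from GENCODE M21 (GRCm38), the 3′ UTR held it in 6 of the 9 members, 9 times in Dclk1 and once in each of Trpm5, Pou2f3, Il25, Alox5ap and Ptgs1, and not in Avil, Il17rb or Sh2d6. The same search over 13004 tested genes found at least 1 in 74.2%, with a median of 2 per gene. The 3′ UTR of Dclk1 is 5334 bases long, against a median of 1106. Its 1.69 elements per kb were fewer than the 2.39 per kb over all 3′ UTRs. For each of the 6 members the element is shown as DNA with its arms in capitals, and for Dclk1 the first of its 9.
Dclk1, exon 17, chr3:55534197-55534204: AGAGTATA
Trpm5, exon 25, chr7:143072033-143072041: TTAGgTCTA
Pou2f3, exon 13, chr9:43124862-43124869: GGAGTTTA
Il25, exon 3, chr14:54935805-54935813: AGAGaTTTA
Alox5ap, exon 5, chr5:149288033-149288046: ATAGacaaaaTTTA
Ptgs1, exon 11, chr2:36251734-36251746: ATAGtgagtTCTA
In the comparison of genotypes given next, the tested members with the element had log2 fold changes from -0.83 to -0.07, and those without it from -0.62 to 0.02.

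Of the 8 tested tuft cell markers, 7 had a lower fitted level in KO crypts, with a median log2 fold change of -0.52, and Il17rb had nearly the same level in both genotypes. Over all genes tested the median log2 fold change was -0.016, and 53.9% of genes were lower. The differences of the single genes were of the size of the spread between mice: with edgeR's quasi-likelihood test, Alox5ap alone reached an unadjusted p under 0.05, 1 of 8, where 3.05% of all genes tested had such a p and were lower and 8.38% had one in either direction. After Benjamini-Hochberg adjustment over all genes, 0 of the 8 passed 0.05 in edgeR, where 0.00621% of all genes, a single gene, did, and 0 of the 8 passed with DESeq2, where 0.577% of all genes did. In none of the 9 members did the 4 KO mice lie wholly above or below the 4 WT mice, which was so in 4.05% of all genes tested. The labels do not say that the numbers pair the mice, and same-numbered mice also shared the sex transcript, Ddx3y or Xist. When the number entered as a replicate block (the paired fit), 3 members had an unadjusted p under 0.05, Dclk1, Avil and Alox5ap. All of these were lower, against 4.13% of all genes lower with such a p. The smallest adjusted p in the paired fit was 0.218, for Dclk1.

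**Figure D1:**
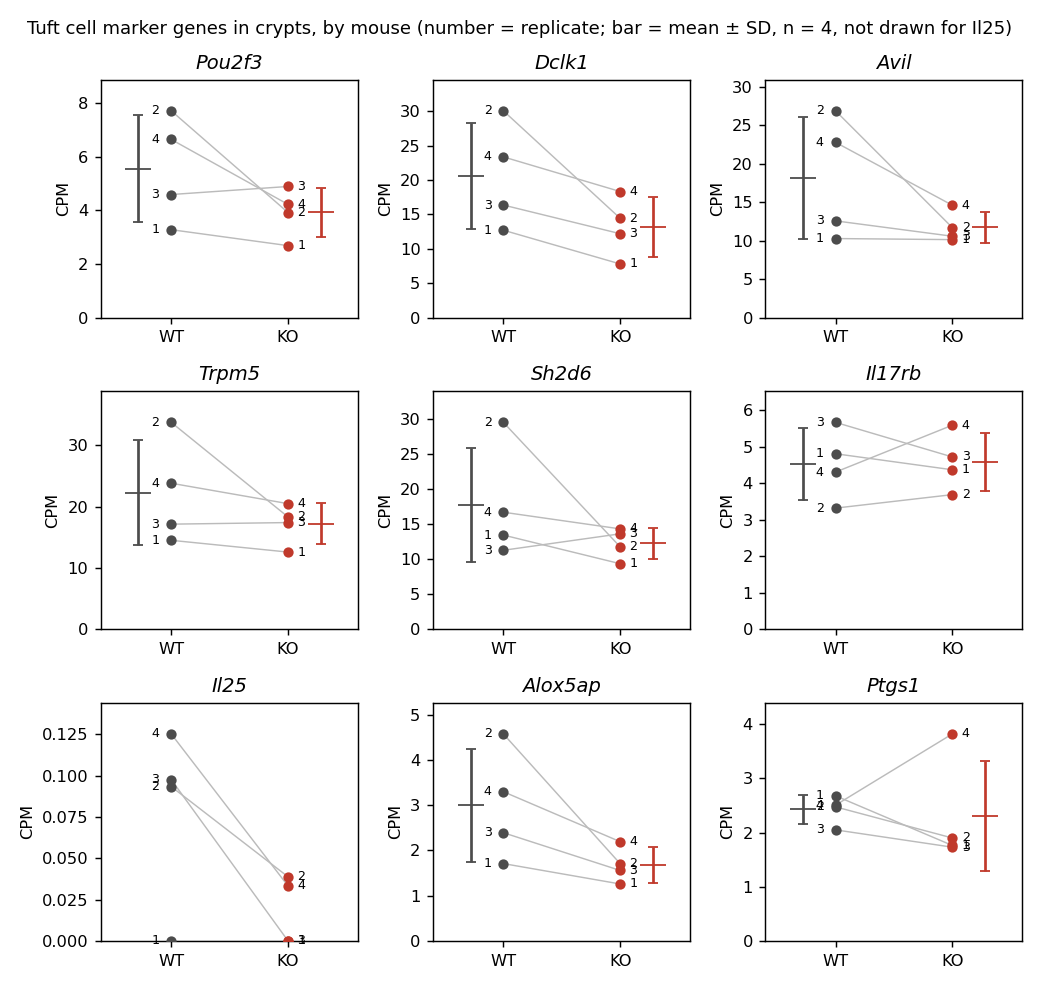
Level of each of the 9 tuft cell marker genes in CPM (y axis, from 0) in the 4 WT and 4 KO mice (x axis), with grey lines joining mice of the same replicate number. Bars show the mean ± SD and are not drawn for Il25. The WT mice spread widely, with replicate 2 on top for 6 of the genes, and the genotypes overlap in every panel.

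Pou2f3 (ENSMUSG00000032015, chromosome 9, 43123939 to 43210369, minus strand) encodes the factor that sets tuft cell fate. It stood at 3.28, 7.71, 4.59 and 6.64 CPM in WT replicates 1 to 4 and at 2.69, 3.92, 4.89 and 4.22 CPM in KO replicates 1 to 4. The genotypes overlapped, as WT replicate 1 was below 3 of the KO mice and replicate 3 was higher in KO than in WT. WT mice averaged 5.55 ± 1.99 CPM and KO mice 3.93 ± 0.922 (mean ± SD, n = 4). The fitted log2 difference was -0.50 (standard error 0.29, 95% interval -1.15 to 0.15, edgeR adjusted p = 0.671).

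Dclk1 (ENSMUSG00000027797, chromosome 3, 55242364 to 55539068, plus strand) encodes a doublecortin-like kinase that is the usual stain for tuft cells. It stood at 12.7, 30.0, 16.4 and 23.4 CPM in the WT mice and at 7.81, 14.4, 12.2 and 18.3 CPM in the KO mice. Each KO mouse was below the WT mouse of its number, by 0.70, 1.06, 0.42 and 0.35 on the log2 scale for replicates 1 to 4, while the range of KO mice reached past the lowest WT mice. Dclk1, Avil and Alox5ap were the members lower in all 4 pairs, which held for 9.65% of all genes tested. With the numbers ignored the log2 fold change of Dclk1 was -0.64 (standard error 0.31, 95% interval -1.34 to 0.05, edgeR adjusted p = 0.618), and the two-sided exact permutation p was 0.171. In the paired fit the fold change was -0.63 and the standard error dropped to 0.14, with an unadjusted p of 0.00317. Counts were given per gene, so that the long and short forms of Dclk1 were not separated.

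Avil (ENSMUSG00000025432, chromosome 10, 127000709 to 127020994, plus strand) encodes advillin, an actin-binding protein of the tuft cell's apical bundle. Its levels were 10.3, 26.9, 12.6 and 22.8 CPM in WT and 10.2, 11.7, 10.6 and 14.6 CPM in KO. The KO mice lay close together, within 1.44-fold, whereas the WT mice spread 2.61-fold, with replicates 2 and 4 far above replicates 1 and 3. Its log2 fold change was -0.62 (standard error 0.29, 95% interval -1.28 to 0.04, edgeR adjusted p = 0.616), and in the paired fit it was -0.53 with an unadjusted p of 0.0309. In replicate 1 the pair differed by 0.020 on the log2 scale and in replicate 2 by 1.20.

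Sh2d6 (ENSMUSG00000052631, chromosome 6, 72513641 to 72521707, minus strand) encodes a protein with an SH2 domain, which binds phosphotyrosine, and is found in the epithelium mainly in tuft cells. It stood at 13.5, 29.5, 11.3 and 16.7 CPM in WT and at 9.36, 11.8, 13.6 and 14.3 CPM in KO. WT replicate 2 stood apart at the top, and the 7 other mice overlapped. The log2 fold change was -0.53 (standard error 0.29, 95% interval -1.18 to 0.11, edgeR adjusted p = 0.648), and -0.17 without WT replicate 2.

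Trpm5 (ENSMUSG00000009246, chromosome 7, 143069153 to 143094642, minus strand) encodes the cation channel at the end of the chemosensory cascade. Its levels were 14.5, 33.7, 17.1 and 23.8 CPM in WT and 12.6, 18.3, 17.4 and 20.5 CPM in KO. In replicate 3 the pair was nearly equal, and 3 KO mice lay above the lowest WT mouse. The log2 fold change of -0.37 (standard error 0.26, 95% interval -0.96 to 0.21, edgeR adjusted p = 0.735) shrank to -0.10 without WT replicate 2.

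Il25 (ENSMUSG00000040770, chromosome 14, 54932695 to 54935837, plus strand), the cytokine by which tuft cells call on lymphoid cells, was barely covered. The WT mice had 0, 2, 2 and 3 reads on it and the KO mice 0, 1, 0 and 1, in the order of their numbers. No mouse exceeded 3 counts, the limit that a count of 0 allows and which is worth 0.0979 to 0.148 CPM at these depths. No difference was detectable at this depth, and no fold is given.

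Il17rb (ENSMUSG00000015966, chromosome 14, 29996135 to 30008896, minus strand) encodes the IL-25-binding chain of its receptor, present on lymphoid cells and on tuft cells. Its levels were 4.81, 3.32, 5.66 and 4.30 CPM in WT and 4.37, 3.69, 4.72 and 5.59 CPM in KO. The ranges covered each other almost fully, and WT replicate 2, the highest mouse for most members, was the lowest here. Between the genotypes the log2 fold change was 0.02 with a standard error of 0.21 (95% interval -0.45 to 0.49, edgeR adjusted p = 0.988).

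Alox5ap (ENSMUSG00000060063, chromosome 5, 149264767 to 149288153, plus strand) encodes FLAP, which hands arachidonic acid to 5-lipoxygenase for leukotriene synthesis. It stood at 1.71, 4.58, 2.39 and 3.30 CPM in WT, from 37, 98, 49 and 79 counts. In KO it stood at 1.26, 1.71, 1.56 and 2.19 CPM, from 30, 44, 36 and 66 counts. All 4 KO mice were below the WT mouse of their number, and the genotypes overlapped through WT replicate 1 and KO replicate 4. The log2 fold change was -0.83 (standard error 0.32, 95% interval -1.55 to -0.10), with an unadjusted p of 0.0291, an adjusted p of 0.557 from edgeR and a two-sided exact permutation p of 0.0571. In the paired fit the unadjusted p was 0.0143 and the adjusted p 0.321. Over the fits that each left out 1 mouse the unadjusted p of Alox5ap lay between 0.00746 and 0.0981.

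Ptgs1 (ENSMUSG00000047250, chromosome 2, 36230426 to 36252272, plus strand) encodes cyclooxygenase 1, the constitutive enzyme of prostaglandin synthesis. Its levels were 2.68, 2.48, 2.05 and 2.51 CPM in WT and 1.76, 1.90, 1.73 and 3.82 CPM in KO. In 3 of the 4 pairs the KO mouse was the lower, and KO replicate 4 was the highest of the 8 mice. Fitted over all mice, the log2 fold change was -0.07 (standard error 0.29, 95% interval -0.72 to 0.58, edgeR adjusted p = 0.976), and -0.43 without KO replicate 4.

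**Figure D2:**
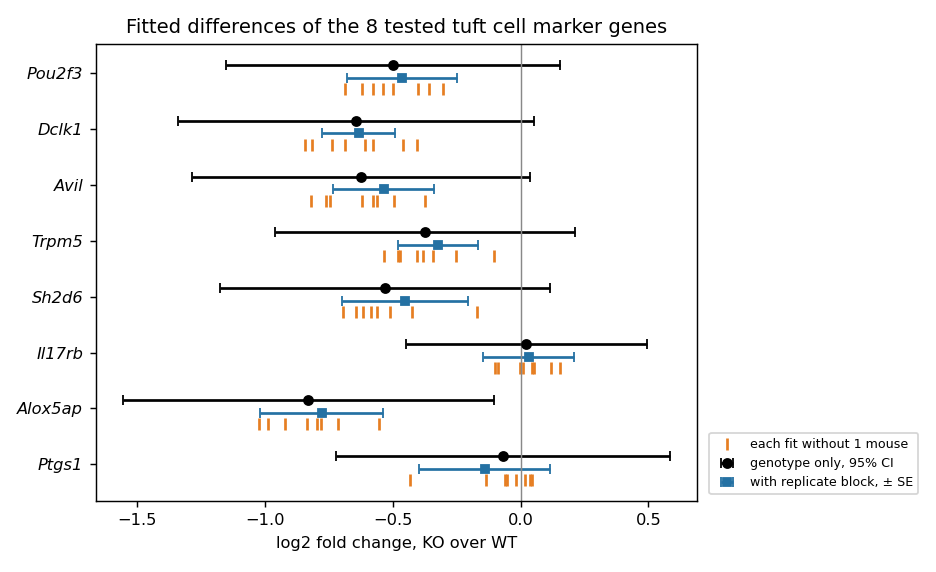
Fitted log2 fold change, KO over WT (x axis), of the 8 tested tuft cell marker genes (y axis). Black circles with 95% intervals are the fit on genotype alone, blue squares with ± SE the fit with the replicate block, and orange ticks the 8 fits that each left out 1 mouse; only the interval of Alox5ap, from -1.55 to -0.10, stays below 0.

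How far the genotypes lay apart differed between the pairs of mice. The median log2 difference over the 8 tested members was -1.02 in pair 2, and -0.36, -0.25 and -0.29 in pairs 1, 3 and 4. Within the mice with Ddx3y (replicates 1 and 2) 7 of the 8 members were lower in KO, with a median difference in mean log2 CPM of -0.62, and within the mice with Xist (replicates 3 and 4) 5 of 8 were lower, with a median of -0.19. Whether the sexes differed was not tested. With sex as a covariate over all 8 mice the members' median was -0.51. Without WT replicate 2 all 8 tested members had log2 fold changes below 0, their median was -0.24 and 0 had an unadjusted p under 0.05, against 7.75% of all genes tested in that fit. The log2 fold changes were then -0.30 for Pou2f3, -0.40 for Dclk1, -0.37 for Avil and -0.55 for Alox5ap. The count of members with such a p was also 0 without WT replicate 4 (9.02% of all genes in that fit) and without KO replicate 1 (13.0%), 2 (7.73%) or 3 (5.16%). It was 3 without WT replicate 3 (6.27%) or KO replicate 4 (6.16%) and 4 without WT replicate 1 (6.72%). With DESeq2, where 9.08% of all genes had such a p, it was 3, the same genes as in the paired fit.

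Most members ordered the mice alike. For Pou2f3, Dclk1, Avil, Trpm5, Sh2d6 and Alox5ap, a set formed after their values were seen, WT replicate 2 was the highest mouse in 6 of 6, WT replicate 4 the next in 6 of 6 and KO replicate 1 the lowest in 6 of 6. The WT mice differed 2.33- to 2.68-fold from lowest to highest in each of these genes, a wider range than between the genotype means. Il17rb and Ptgs1 did not share this order. After each genotype's mean was taken off, the log2 CPM of a member correlated over the 8 mice with the mean of the other members at r = 0.956 for Dclk1, 0.942 for Alox5ap, 0.923 for Trpm5, 0.863 for Avil, 0.815 for Pou2f3 and 0.789 for Sh2d6, and at 0.428 for Ptgs1 and -0.388 for Il17rb. These values describe 8 mice, whose libraries every gene shares.

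**Figure D3:**
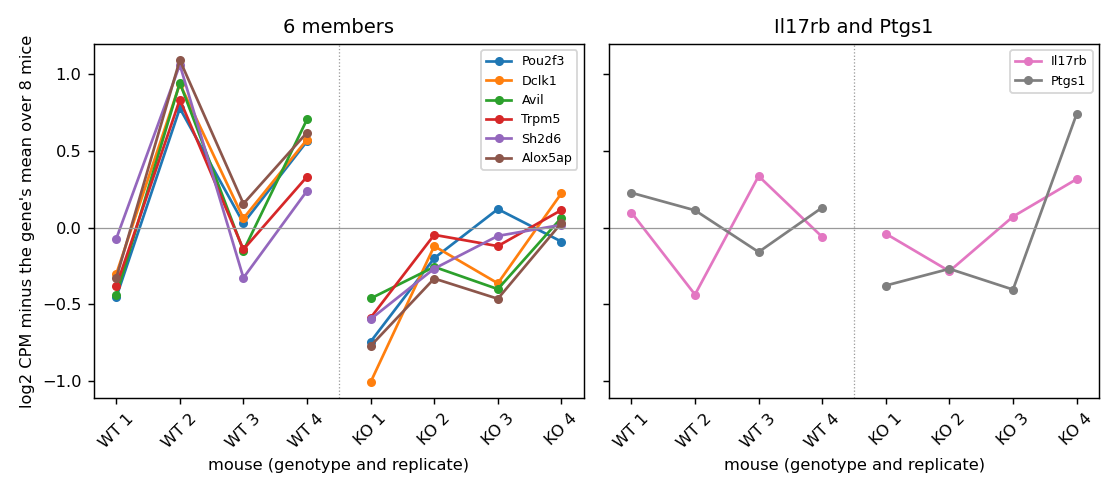
Log2 CPM of each tested member minus its own mean over the 8 mice (y axis) for each mouse (x axis, WT left and KO right of the dotted line). The 6 genes on the left peak together at WT replicate 2 and are lowest at KO replicate 1, and Il17rb and Ptgs1 on the right follow other courses.

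The genes whose deviations from the genotype mean were most like the members' mean profile were, among the 16101 other genes tested, Pik3r5 (r = 0.979 over 8 mice), Mmgt2, Hpgds, Scg2, Sh2d7, Rtn4, Ildr1, Pik3cg, Pde1c and Nuak1 (r = 0.944). Pik3r5, Hpgds, Ildr1 and Pik3cg, 4 of these 10, belong to the lists of other tuft cell genes, as do 13 of the 50 most alike. The median r was 0.80 for the 44 other tuft cell genes that were tested and -0.0030 for all genes ranked. Of the 10 most alike genes 7 were lower in KO, and Scg2, Rtn4 and Ildr1 were higher. Ildr1, an immunoglobulin-like receptor, ran with the members over the mice (r = 0.949) and was higher in all 4 KO mice than in all WT mice, with a log2 fold change of 0.46 (standard error 0.17, edgeR adjusted p = 0.545).

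**Figure D4:**
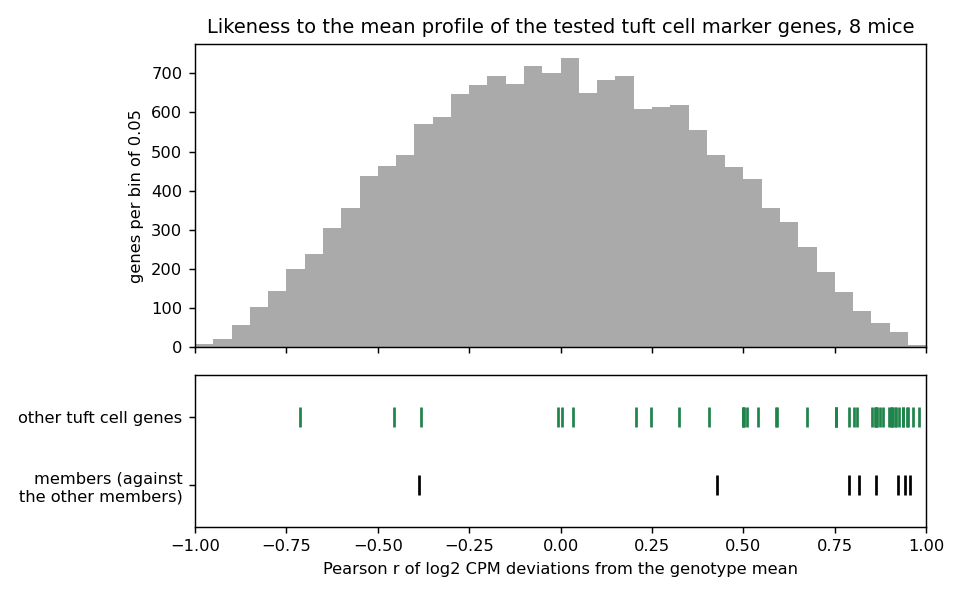
Upper panel, number of tested genes (y axis) by their Pearson r with the mean profile of the tuft cell marker genes over 8 mice (x axis), after removal of genotype means. Lower panel, r of the 44 other tuft cell genes, most of them to the right with a median of 0.80, and of each of the 8 tested members with the mean of the other members.

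On the length-scaled measure (FPKM, fragments scaled by gene length and library size), which allows levels of genes to be compared, Sh2d6 stood highest at 8.83 ± 3.67 (mean ± SD over 8 mice). Avil followed at 4.38 ± 1.86, Trpm5 at 3.07 ± 1.02 and Alox5ap at 1.64 ± 0.771 FPKM. This order of 4 genes held in 8 of 8 mice. Pou2f3 at 1.53 ± 0.539, Il17rb at 1.22 ± 0.222 and Dclk1 at 1.10 ± 0.455 FPKM were not separated from their neighbours, since Alox5ap was above Pou2f3 in 6 of 8 mice, Pou2f3 above Il17rb in 4 of 8 and Il17rb above Dclk1 in 6 of 8. Ptgs1 was below Dclk1 in 8 of 8 mice at 0.606 ± 0.176, and Il25 was lowest at 0.0454 FPKM on average, with 0 in 3 of 8 mice. The length used for Dclk1 was 15296 bases of merged exons, against 1420 for Alox5ap, so a gene of which crypts use a short form is placed too low on this scale.

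**Figure D5:**
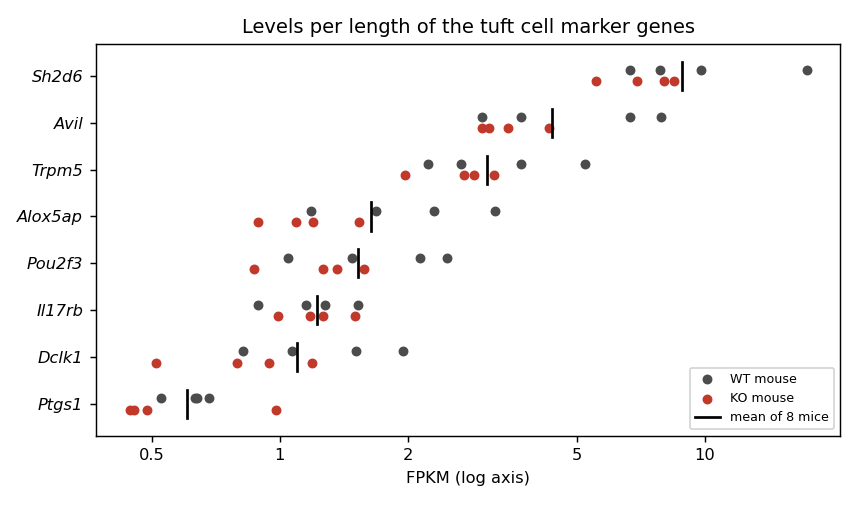
FPKM (x axis, log scale) of the tuft cell marker genes (y axis, ordered by mean) in each WT mouse (grey), each KO mouse (red) and on average over the 8 mice (black line). Sh2d6, Avil, Trpm5 and Alox5ap descend from 8.83 to 1.64 FPKM, the next 3 genes interleave, and Il25, with 0 in some mice, is left out.

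The other genes of the tuft cell, 52 in 5 lists, were mostly lower in KO crypts too. Of the 44 tested, 33 were lower and 11 higher, with a median log2 fold change of -0.27, which was -0.08 without WT replicate 2 and -0.17 without KO replicate 1. An unadjusted p under 0.05 was reached by 7, of which 6 were lower, against 8.38% of all genes tested in either direction and 3.05% lower, and 0 passed after adjustment in edgeR. In the paired fit 10 had an unadjusted p under 0.05, 8 of them lower, against 4.13% of all genes lower with such a p. The list's count of 7 was 4 without WT replicate 2, KO replicate 2 or KO replicate 3 and 11 without WT replicate 1.

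In the chemosensing list 6 of 11 genes were tested, 4 were lower and 0 had an unadjusted p under 0.05, or 2 in the paired fit, Plcb2 and Rgs13. Plcb2, the phospholipase upstream of TRPM5, stood at 6.47, 11.8, 6.64 and 8.31 CPM in WT and at 3.28, 4.69, 6.28 and 7.25 CPM in KO, lower in each pair. Its log2 fold change was -0.63 (standard error 0.28, edgeR adjusted p = 0.596), with an unadjusted p of 0.0525 and of 0.0334 in the paired fit, and it was -0.41 without WT replicate 2. Rgs13, a regulator of G protein signalling, had a log2 fold change of -0.72 (standard error 0.34, edgeR adjusted p = 0.616), and of -0.41 without WT replicate 2. The taste G protein subunits were at the edge of detection, with 1 to 8 counts per mouse for Gnat3 and 6 to 15 for Gng13, and so was the succinate receptor gene Sucnr1 with 0 to 6 counts.

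In the eicosanoid list all 5 tested genes of 7 were lower, 2 of them with an unadjusted p under 0.05, or 1, Alox5, in the paired fit, where that of Tbxas1 was 0.0827. Alox5, the 5-lipoxygenase that works with FLAP, stood at 2.86, 9.20, 3.61 and 4.72 CPM in WT and at 2.02, 2.68, 2.73 and 3.42 CPM in KO. It was lower in all 4 pairs, and its log2 fold change of -0.91 (standard error 0.36, edgeR adjusted p = 0.557) was -0.46 without WT replicate 2, with unadjusted p of 0.0568 to 0.107 without that mouse or KO replicate 1, 2 or 3. Tbxas1, thromboxane synthase, had 0.739, 0.187, 2.83 and 3.51 CPM in WT and 0.333 to 0.630 in KO, with WT replicates 3 and 4 far above the 6 other mice and a log2 fold change of -1.97 (standard error 0.73, edgeR adjusted p = 0.545). Its unadjusted p lay above 0.05 without WT replicate 3 or 4 or KO replicate 3 or 4, at 0.0531 to 0.0860. Ltc4s, leukotriene C4 synthase, had a log2 fold change of -0.46 (standard error 0.40), which was -0.17 without WT replicate 2 and -0.22 without KO replicate 3, and Hpgds, a prostaglandin D synthase, of -0.10 (standard error 0.31), which was 0.05 without KO replicate 1 and -0.34 without KO replicate 4.

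Among the transcription factors 4 of 5 were tested and all 4 were lower, with 0 unadjusted p under 0.05. Hmx3 had a log2 fold change of -0.78 (standard error 0.39, edgeR adjusted p = 0.618; -0.44 without WT replicate 2) and Runx1 of -0.40 (standard error 0.21, edgeR adjusted p = 0.640). Gfi1b, a repressor found in tuft cells, had 7 to 18 counts per mouse in WT and 7 to 13 in KO and was not tested.

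In the list of kinases and signalling adaptors 7 of 13 were lower and 6 higher, with a median of -0.07. The 2 with an unadjusted p under 0.05 were both lower. Pik3r5, a regulatory subunit of PI 3-kinase gamma, had a log2 fold change of -0.62 (standard error 0.26, edgeR adjusted p = 0.578), was lower in all 4 pairs and had an unadjusted p of 0.0409, or 0.00709 in the paired fit. That of 0.0409 lay between 0.0673 and 0.129 without WT replicate 2 or 4 or KO replicate 1, 2 or 3.

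In the list of structural and surface genes 13 of 16 were lower, and 2 lower genes and 1 higher gene, Ildr1, had an unadjusted p under 0.05, or 3 and 2 in the paired fit. That of Ildr1 was above 0.05 without WT replicate 1 or 3 or KO replicate 4, at 0.0530 to 0.0830. Ly6g6d, a GPI-anchored surface protein, was the lower gene whose genotypes did not overlap, at 1.07 to 1.31 CPM in WT and 0.588 to 0.831 in KO. Its log2 fold change was -0.73 (standard error 0.22, unadjusted p = 0.00961 and adjusted p = 0.518 from edgeR). Cd24a, which crypt base cells also carry, had a log2 fold change of -0.41 (standard error 0.15, edgeR adjusted p = 0.545), with an unadjusted p of 0.0220 that was 0.0603 without WT replicate 1 and 0.0594 without KO replicate 2. Chat, the acetylcholine-making enzyme, had a log2 fold change of -0.77 (standard error 0.42) and the surface lectin Siglecf of -0.50 (standard error 0.39). Without WT replicate 2 these were -0.36 and -0.09.

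Genes that act before or after the tuft cell in the type 2 circuit did not share this direction, as 3 of the 9 tested genes of 16 were lower and 6 higher, with a median of 0.12. Il13, which drives tuft cell expansion, had 0 or 1 counts in every mouse, Il5 likewise, and Il9 had 0 in all 8 mice. Il4ra, the receptor chain through which the epithelium answers IL-13, had a log2 fold change of 0.25 (standard error 0.13, edgeR adjusted p = 0.630). Areg, an epidermal growth factor receptor ligand, stood at 5.51 to 7.90 CPM in WT and 7.72 to 13.9 in KO, with a log2 fold change of 0.76 (standard error 0.20, unadjusted p = 0.00424 and adjusted p = 0.518 from edgeR). Retnlb, a goblet cell product induced by IL-13, stood at 2.40, 2.24, 0.928 and 0.585 CPM in WT and at 0.042, 0.504, 0.562 and 0.266 CPM in KO. Every KO mouse was below every WT mouse for Retnlb, with a log2 fold change of -2.15 (standard error 0.64, edgeR adjusted p = 0.518). The counts were low, at 52, 48, 19 and 14 in WT and 1, 13, 13 and 8 in KO. KO replicate 1 lay below the limit that a count of 0 allows in that mouse, 0.128 CPM.

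Several tuft cell genes, among them Alox5ap, Alox5, Ptgs1 and Tbxas1, are also active in leukocytes, and Il17rb in lymphoid cells. The 7 T cell markers were all higher in KO, 5 with an unadjusted p under 0.05 where 5.33% of all genes tested were higher with such a p, and summed to 7.43 to 19.8 CPM in WT and 13.6 to 48.2 CPM in KO. The 7 leukocyte markers were likewise all higher, 4 with such a p, at 20.9 to 38.3 CPM in WT and 32.8 to 72.0 CPM in KO. Of the 8 mast cell markers 3 were tested, all lower with 0 unadjusted p under 0.05. In the paired fit, where 4.13% of all genes tested were lower with such a p, 2 had one, Mcpt1 and Mcpt2. These mast cell proteases were named after their values were seen. Mcpt1 averaged 4.78 CPM in WT and 2.59 in KO, lower in all 4 pairs, with a log2 fold change of -0.89 (standard error 0.61, unadjusted p = 0.179, and 0.00770 in the paired fit), and of -0.53 without KO replicate 4. Mcpt2 averaged 1.61 CPM in WT and 0.905 in KO, with a log2 fold change of -0.83 (standard error 0.39, unadjusted p = 0.0604, and 0.0474 in the paired fit). The sum of the 8 genes, 46.6 to 65.1 CPM in WT and 39.7 to 59.2 in KO, was mostly Kit, with a log2 fold change of -0.06, while Cpa3, Fcer1a, Ms4a2, Tpsb2 and Cma1 had 0 to 7 counts per mouse. Of the 7 markers of group 2 innate lymphoid cells 2 were tested, with 0 unadjusted p under 0.05 and a sum of 2.34 to 4.01 CPM in WT and 2.72 to 3.56 in KO. Of the 8 neuronal and glial markers, which matter because neurons also express Dclk1, 3 were tested with 0 such p, and their sum was 4.62 to 6.73 CPM in WT and 4.91 to 7.31 in KO. The lists of myeloid cells (7 of 8 tested; 40.6 to 44.9 CPM in WT, 37.2 to 54.0 in KO), B and plasma cells (6 of 6; 14.6 to 28.3 and 17.5 to 29.2) and stroma (6 of 8; 13.4 to 24.1 and 18.4 to 31.4) had 0 unadjusted p under 0.05; in the paired fit myeloid cells and stroma had 1 each, both higher, and the T cell list 6, where 7.14% of all genes tested were higher with such a p.

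The other epithelial lists were counted in the same way. Of all genes tested, 3.05% were lower in KO with an unadjusted p under 0.05 and 5.33% were higher with such a p. All 8 stem cell markers were lower in KO, 5 with an unadjusted p under 0.05, and all 7 Paneth cell markers were lower with 0 such p. All 7 goblet cell markers were higher with 2 such p, all 8 enterocyte markers were higher with 1, and the 8 enteroendocrine markers held 5 lower and 3 higher, with 1 such p, for a higher gene. In the paired fit these counts were 5 for stem cell, 1 for Paneth cell, 4 for goblet cell and 3 for enterocyte markers, in the same directions. The count was 1 for enteroendocrine markers, now for a lower gene, Gip, in place of the higher Sct. In that fit 4.13% of all genes tested were lower with such a p and 7.14% were higher. None of the genes of these lists passed after adjustment in edgeR. The part of these epithelial and immune differences in the levels of the tuft cell markers was not tested.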

How the data were processed

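RNA-seq of crypts from 8 mice was read per gene. Per gene, the authors deposited raw counts, not normalized, and FPKM values, which scale the counts by merged exon length and library size; the submitters' processing notes name HISAT2 2.0.5 and featureCounts 1.5.0-p3, and whether counting used strand is not given in the sources used here. Coordinates match GRCm38. Deposited columns of the authors' own comparison (group means, fold changes, p-values), their gene list and a summary of it were not used. The members and gene lists were chosen with earlier results of these data known.

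Counts were fitted in edgeR 4.0.16 (R 4.3.3) with filterByExpr (minimum count 10), TMM factors, genotype as the only term and glmQLFTest, with Benjamini-Hochberg adjustment over all genes tested; the scripts were tested on simulated data. CPM use TMM library sizes. Intervals are 95%. Two-sided exact permutation tests used all 70 assignments of the mice, whose smallest p is 0.0286. Each mouse is its own library; no libraries were alike within sampling noise. Counting limits cover counting error only. With genotype means removed, mice of the same number correlated at 0.129 to 0.501 in the 4 pairs, all above 0.1. The numbers were therefore taken to pair the mice, although the study says only that controls were littermates. Same-numbered mice also shared the sex transcript, and its part in these correlations was not tested. The alternatives were DESeq2 1.42.0, upper-quartile or RLE factors, testing with no filter, at least 10 counts in every mouse, the block, sex, limma 3.58.1 on log2 FPKM with 1 or 0.1 added, and each mouse left out.

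Genes named were all members, the 2 of smallest p in each other tuft and type 2 circuit list, a fixed set of known tuft and type 2 genes, and the 10 most alike in profile; some genes of these lists are not reported here. Ildr1 counts both among the most alike and in a list.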

Additional observations from a re-analysis of the deposited data

Results flagged for a closer look

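Ptgs1 in the KO mice had a sample far from the others: KO replicate 4 stood at 3.82 CPM and the other 3 KO mice at 1.73 to 1.90, and on the log2 CPM scale its gap to the nearest of them was 0.883 of the group's range, above Dixon's 95% critical value for 4 samples. Of 66 groups of 4 mice examined, 1 was past that value, and about 3.3 would be by chance.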

How the results depend on the processing

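Over 17 alternatives, 130 of 136 fold changes of the tested members kept their direction. The 6 that turned were of Il17rb and Ptgs1 with 1 mouse left out, where the log2 fold changes ranged from -0.10 to 0.15 for Il17rb and from -0.43 to 0.04 for Ptgs1; those without WT replicate 2, WT replicate 4 and KO replicate 4 turned Il17rb (-0.10, -0.0010, -0.087), and those without KO replicate 1, 2 or 3 turned Ptgs1 (0.039, 0.018, 0.045). The number of members with an unadjusted p under 0.05, 1 as reported, was 3 with DESeq2, 3 with no filter, 3 with the replicate block and 0 to 4 with 1 mouse left out. Over all genes such a p was reached by 1463 of 16109 with DESeq2, 2011 of 31255 with no filter and 1815 of 16109 with the block. The other tuft cell genes with such a p ranged from 4 to 11 and all genes from 846 to 2133 with 1 mouse left out. The number of all genes passing after adjustment, 1 as reported, was 93 with DESeq2, 2 with no filter, 0 with at least 10 counts in every mouse, 0 with the replicate block, 4 with sex as a covariate, 2 with either limma fit and 0 to 4 with 1 mouse left out. No member passed after adjustment under any alternative (smallest adjusted p 0.218, with the replicate block). The median log2 fold change was -0.30 for the members and -0.12 for the other tuft cell genes with limma on log2(FPKM + 1), a scale that understates low genes. Other causes were not tested. With 4 mice a genotype, the 95% intervals of the members span 0.94 to 1.45 log2 units, and Il25 was too shallow to compare.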
